A study of Rattus norvegicus with 14 samples.

Results

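Genes of protein breakdown in the heart muscle are described here: subunits of the proteasome, 2 muscle ubiquitin ligases, ubiquitin itself, and genes of autophagy and the lysosome. The 38 genes were chosen by name, and a gene counted as measured where a probe set of the array was annotated with its symbol and no other. By that rule 35 of the 38 were measured, of 14217 genes measured on the array in all. Map1lc3b and Psmb6 were each listed on 1 probe set together with another gene and have no value of their own, and no probe set was annotated with Ubb. The samples were left ventricles of rats: 7 control animals without diabetes, given saline into a tail vein, and 7 diabetic animals given streptozotocin (STZ) at 60 mg/kg by the same route, both under halothane. The labels call the diabetic animals male Wistars and give neither sex nor strain for the controls. Streptozotocin destroys the insulin-producing beta cells, so the animals are a model of insulin deficiency. Hearts were taken after 16 weeks, and each animal's RNA was read on its own Affymetrix rat array. One label of the diabetic samples speaks of saline, while their titles and source speak of diabetes, and the titles were followed.

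Proteins marked with chains of ubiquitin are degraded by the proteasome, a barrel of alpha and beta rings (the 20S core) capped by a regulatory particle (19S) whose ATPase ring unfolds the substrate. Ubiquitin ligases choose the substrates. In striated muscle Trim63 (MuRF1) and Fbxo32 (atrogin-1) are the ligases best known for their induction during wasting, under the control of FoxO transcription factors that insulin signalling holds in check. Autophagy is the second route: a double membrane coated with lipid-linked proteins of the Atg8 family encloses cytoplasm or organelles and delivers them to the lysosome, where cathepsins degrade the content.

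None of these genes was called changed in the diabetic left ventricle. Of the 35 measured members 0 were higher and 0 lower (limma adjusted p under 0.05), where 1.72% of all genes were called, 0.943% higher and 0.781% lower. At an unadjusted p under 0.05 there were 5 members, all lower in diabetic animals (Trim63, Ulk1, Psmc5, Psmc3 and Psmb7), beside 11.5% of all genes, 5.59% higher and 5.94% lower. All 7 diabetic animals lay below the control median in 6 members (7.56% of all genes) and above it in 0 (6.61% of all genes). In 0 members were the 7 diabetic animals all beyond the 7 controls, against 1.83% of all genes. The log2 changes, diabetic minus control, ran from -0.39 (Trim63) to 0.18 (Map1lc3a), with a median of -0.05 over the members and -0.0019 over all genes. All values are log2(scaled signal + 50), a scale that understates changes of dim genes.

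For 32 of 35 members the 95% interval of the change lay inside 1.5-fold in either direction, as it did for 59.5% of all genes. The 3 others were Trim63, Ulk1 and Psmc5, whose intervals reached beyond 1.5-fold lower and stayed below no change. The members were brighter than all genes (median log2 level 11.66 against 8.46), with a smaller median standard error (0.12 against 0.17). The 2 shares are therefore not those of like genes. Given each gene's standard error in this group-only fit, the smallest change that the fit could have called ran from 1.33-fold (Psma4) to 1.85-fold (Fbxo32), and it was under 1.5-fold for 24 of the 35. Other fits of the same arrays have other limits. Because the samples are whole tissue, fewer cells of a type and less RNA per cell cannot be told apart.

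**Figure D1:**
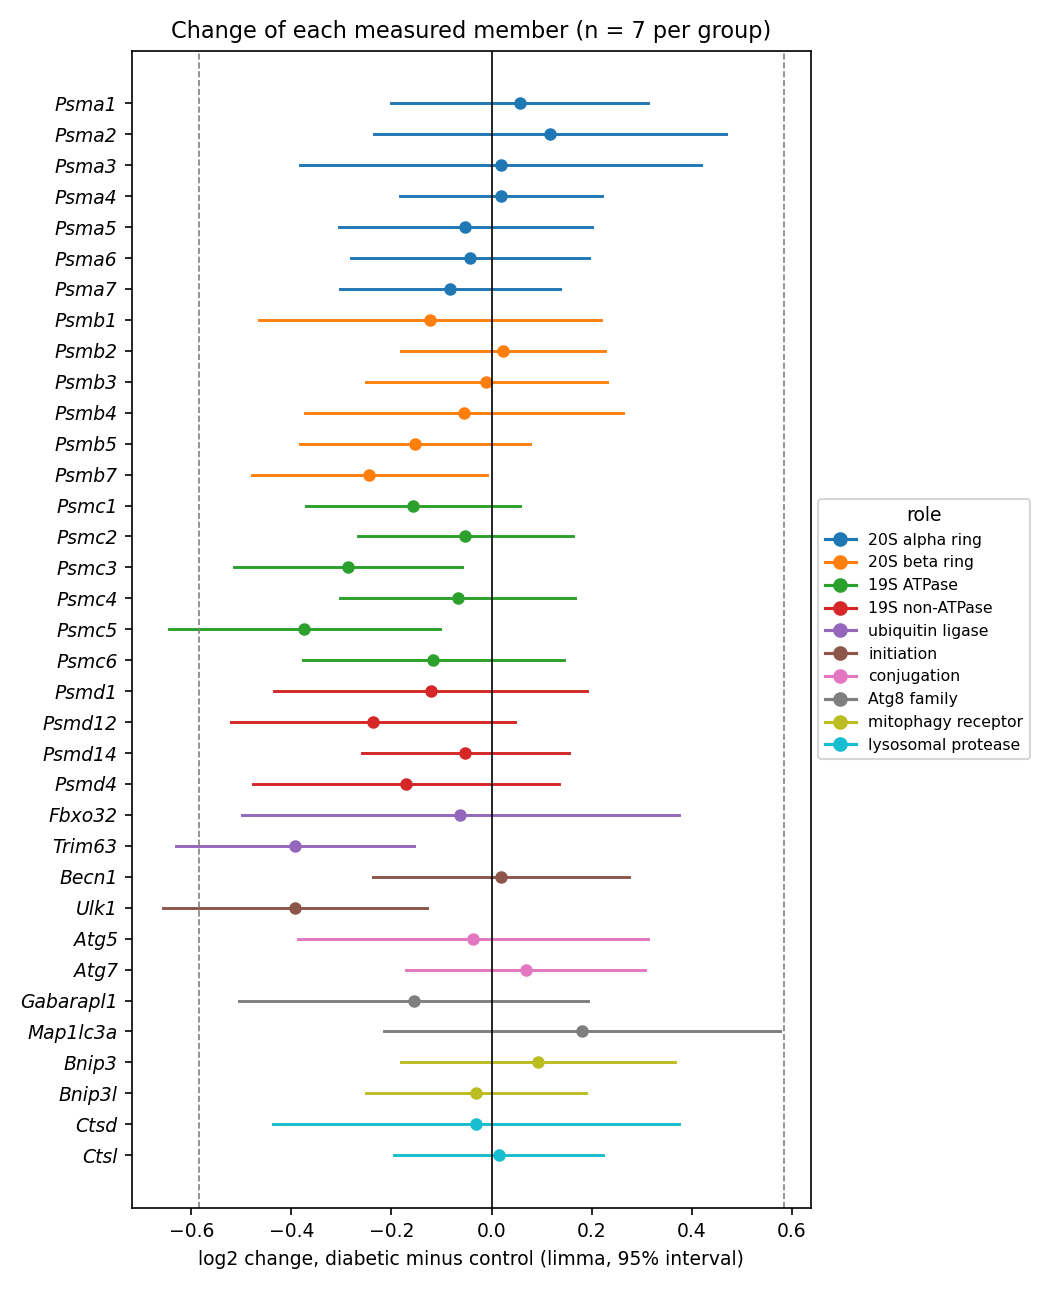
Log2 change (diabetic minus control, n = 7 per group) of each of the 35 measured members as a point, with its 95% interval from limma as a line, coloured by role; the dashed lines mark 1.5-fold in either direction. The points lie between -0.39 and 0.18, and the lines of Trim63, Ulk1 and Psmc5 cross the lower dashed line.

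The arrays differed in ways that the groups do not account for. The median deposited signal ran from 14.8 to 85.3 between arrays, and control probe sets sorted the arrays into 3 batches: A (2 control and 2 diabetic animals), B (2 and 2) and C (3 and 3). Batches A and B were told apart by the ratio of the 3' to the 5' beta-actin probe sets, a sign of RNA length, which averaged 1.03 ± 0.40 in control and 1.09 ± 0.39 in diabetic on the log2 scale (SD, n = 7, exact two-sided permutation p = 0.818). The mean log2 signal of 5 ventricular muscle genes (Myl2, Myl3, Myh6, Tnnt2 and Tnni3) ran from 14.92 to 14.99 in controls and from 14.80 to 14.89 in diabetic animals, without overlap, and 0 of 5 were called. Myh6, the alpha myosin heavy chain, had the largest change of the 5 (log2 -0.23 ± 0.09, SE, limma adjusted p = 0.363, all 7 diabetic animals below every control). The 4 other genes were also below 0, between -0.10 and -0.01, with overlapping groups. The part of this gap in the values below was not tested. Macrophage markers had a mean log2 signal of 8.98 to 9.81 in controls and 9.50 to 10.2 in diabetic animals, with 0 of 6 called (limma, 3 at an unadjusted p under 0.05). With batch as a block Mrc1 was called (log2 0.71, limma adjusted p = 0.0371, and 0.0722 without the block). The 4 atrial markers varied widely within each group, from 9.36 to 13.0 in controls and from 9.80 to 13.2 in diabetic animals. Their changes were all above 0 (median log2 1.03), with 0 of 4 called (limma, 1 at an unadjusted p under 0.05). Within batches A, B and C that median was 2.21, 2.16 and -0.18. The part of atrial tissue in the values below was not tested. Of 41 markers measured in all, 1 was called, where 1.72% of all genes were called. It was Cfd, of the fat cell list (log2 1.23 ± 0.16, SE, limma adjusted p = 0.000506), with all 7 diabetic animals above every control. The 4 other fat cell markers were not called and ran from log2 -0.06 (Lep) to 0.36 (Adipoq).

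Trim63, the muscle ring-finger ligase that marks myosin and other thick-filament proteins, had the smallest p of all members, and its signal was lower, not higher, in diabetic hearts. The log2 signal ran from 10.61 to 11.02 in controls (median 10.94) and from 10.25 to 10.72 in diabetic animals (median 10.43). All 7 diabetic animals lay below the control median and 4 lay below every control, so the groups overlapped. The group means were 10.88 ± 0.15 and 10.49 ± 0.18 (SD, n = 7), a 0.761-fold level in diabetic animals (95% interval 0.646 to 0.898, limma adjusted p = 0.138). A rise of Trim63 at this time point lies outside that interval, which is not adjusted for the number of genes tested. Within batches A, B and C the log2 change was -0.40, -0.52 and -0.31. With batch as a block the change was called (limma adjusted p = 0.0264, where 3.09% of all genes were called), as it was with an offset of 200 (0.0343), without the dim probe sets (0.0413) and with array weights (0.0467). In the other 27 of 31 settings it was not called. Over all 31 settings its log2 change lay between -0.50 and -0.31, and its adjusted p between 0.0264 and 0.715.

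The promoters of Trim63 and Fbxo32 were set by name to be shown, whatever the search found. Of the 31 of 38 listed genes with a promoter window in RefSeq (unmeasured ones included), Trim63 alone held the core FoxO motif. Fbxo32 is among the 7 without a window and was not searched. The 250 bases before the Trim63 start site (RefSeq, build GRCr8, chr5:151816986-151817235, plus strand) read as follows, with capitals marking the matches.

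Trim63: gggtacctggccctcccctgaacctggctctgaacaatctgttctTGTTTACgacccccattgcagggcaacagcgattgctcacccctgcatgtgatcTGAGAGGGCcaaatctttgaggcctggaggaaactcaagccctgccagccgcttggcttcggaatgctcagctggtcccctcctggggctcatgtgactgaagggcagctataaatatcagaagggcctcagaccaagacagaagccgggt

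The first capital stretch is the FoxO core TGTTTAC, which begins 205 bases before the start site, and the second matches TGANNNNGC, the core of the antioxidant response element bound by the Nrf factors, which begins 151 bases before it. Both motifs and CACGTG, the E-box bound by the lysosomal regulator Tfeb, were searched on both strands in windows of 300 bases (250 before and 50 after each start site), and matches do not overlap in Trim63. The FoxO core was in 1 of the 31 listed genes and in 3.78% of all 33469 windows. The antioxidant response core was in 18 of 31 and in 40.5% of all windows. The E-box was in 6 of 31 (Atg5, Bnip3, Ctsd, Psma4, Psmb3 and Psmc1) and in 6.42% of all. A listed gene counted if any of its windows matched, whereas each percentage is a share of single windows. The counts and the percentages are therefore in unlike units. Among 21 proteasome subunits with a window, 0 held the FoxO core, 11 the antioxidant response core and 3 the E-box. A match is a description of letters, not a binding site.

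Fbxo32, the F-box protein of the atrogin-1 ligase complex, had a log2 signal from 7.25 to 8.40 in controls (median 7.69) and from 7.15 to 8.35 in diabetic animals (median 7.70). The groups covered nearly the same range. The means were 7.72 ± 0.41 and 7.66 ± 0.40 (SD, n = 7), a 0.958-fold level (0.707 to 1.30, limma adjusted p = 0.968). Fbxo32 is the member with the widest bound: a change under 1.85-fold could not have been called in the group-only fit.

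**Figure D2:**
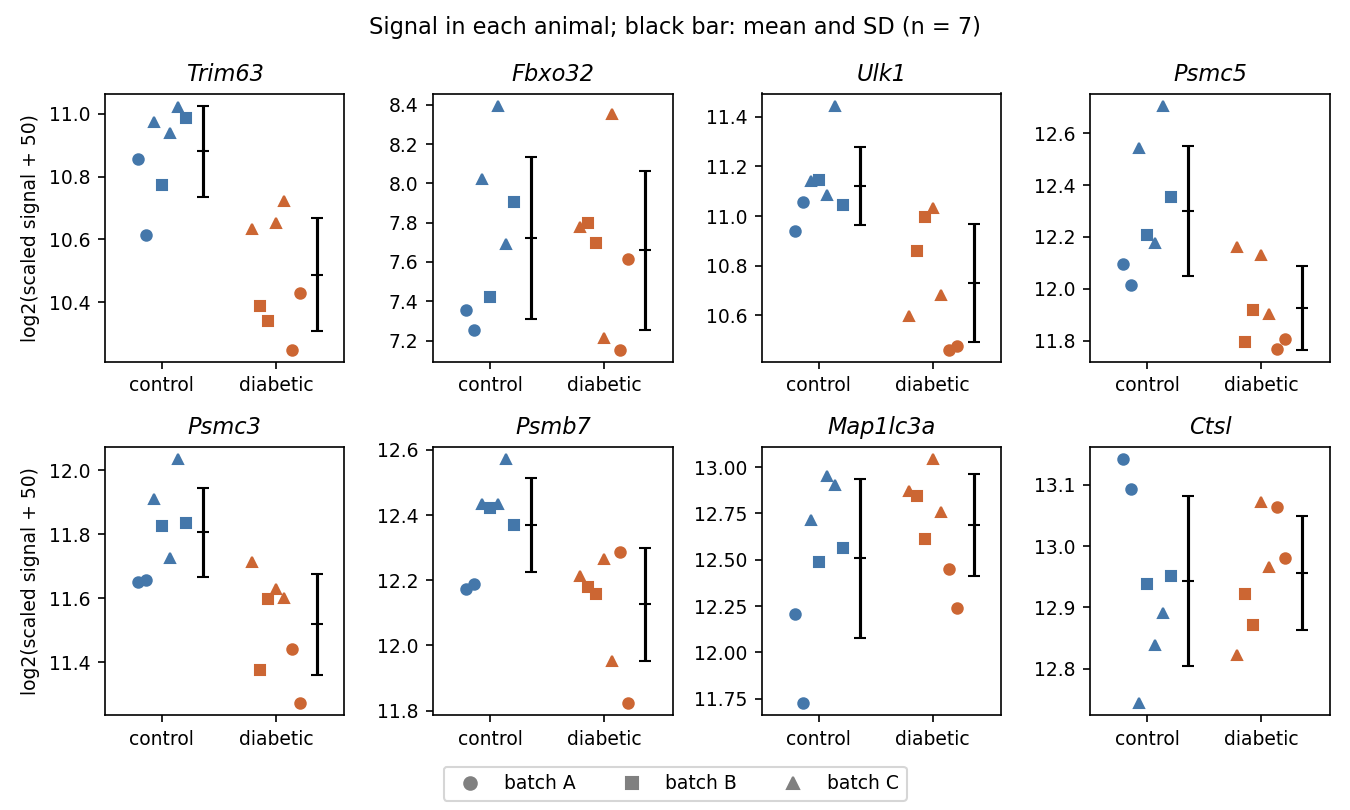
Log2(scaled signal + 50) of 8 members in each of the 14 animals, control on the left and diabetic on the right of each panel, with the symbol giving the batch and the black bar the mean and SD (n = 7); each panel has its own vertical scale, which does not start at 0. In Trim63, Ulk1, Psmc5, Psmc3 and Psmb7 all 7 diabetic animals lie below the control median, while in Fbxo32, Map1lc3a and Ctsl diabetic animals lie on both sides of it.

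Of the 19S regulatory particle, the 6 ATPases, which unfold substrates and open the core, all had a change below 0 (median log2 -0.14), and so had the 4 non-ATPase subunits among the members (median -0.15). These are values of the brightest probe sets. Dimmer ones were at 0.30 for Psmc4, at -0.15 and 0.23 for Psmc6, and at -0.06 and 0.09 for Psmd14. Of 12 other measured genes listed with this particle, assembly chaperones such as Psmd10 included, 7 were below 0 and 5 above (median -0.04). A change below 0 was thus not shared by all genes listed with the particle. Over all genes 50.4% were below 0. None of the 10 members was called, and 2 ATPases had an unadjusted p under 0.05.

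Psmc5 (Rpt6) had a log2 signal from 12.02 to 12.71 in controls (median 12.21) and from 11.77 to 12.16 in diabetic animals (median 11.90). All 7 diabetic animals lay below the control median and 5 below every control. The level was 0.772-fold (0.640 to 0.931), with a log2 change of -0.37 ± 0.13 (SE, limma adjusted p = 0.266). Psmc3 (Rpt5) ran from 11.65 to 12.04 in controls (median 11.83) and from 11.27 to 11.71 in diabetic animals (median 11.60). Only 1 diabetic animal reached the control range. Its level was 0.819-fold (0.700 to 0.959, limma adjusted p = 0.340). Within batches A, B and C the log2 changes were -0.27, -0.42 and -0.41 for Psmc5 and -0.30, -0.34 and -0.24 for Psmc3. With batch as a block neither was called (limma adjusted p = 0.0779 and 0.113).

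The 4 other ATPases had smaller differences, with intervals that held no change. Psmc1 (Rpt2) ran from 11.24 to 11.47 in controls (median 11.45) and from 11.03 to 11.49 in diabetic animals (median 11.24), a 0.897-fold level (0.774 to 1.04). Its highest value was a diabetic animal's, and 6 of 7 diabetic animals lay below the control median. Psmc6 ran from 10.59 to 11.17 in controls (median 10.92) and from 10.59 to 11.07 in diabetic animals (median 10.76), so the diabetic range lay inside the control range. Psmc4 and Psmc2 had levels of 0.954-fold (0.811 to 1.12) and 0.964-fold (0.831 to 1.12).

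Among the non-ATPase subunits, Psmd12 ran from 11.20 to 11.90 in controls (median 11.81) and from 11.22 to 11.72 in diabetic animals (median 11.38), a 0.849-fold level (0.697 to 1.03). All 7 diabetic animals lay below the control median, yet none below every control. Its log2 change was -0.56 within batch B and -0.18 and -0.05 within A and C. Psmd4, a receptor for ubiquitin chains, ran from 10.65 to 11.49 in controls (median 10.98) and from 10.47 to 11.15 in diabetic animals (median 10.90), with 4 of 7 diabetic animals below the control median. Psmd1, a scaffold of the particle, was at 0.919-fold (0.740 to 1.14), and Psmd14, the enzyme that strips ubiquitin from the substrate, at 0.964-fold (0.835 to 1.11).

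In the 20S core, the 7 alpha subunits, which form the outer rings and gate the channel, had log2 changes from -0.08 (Psma7) to 0.12 (Psma2), 3 below 0 and 4 above, with all 7 intervals inside 1.5-fold. The 6 measured beta subunits, which include the proteolytic ones, had log2 changes from -0.24 to 0.02 with 5 below 0, and all 6 intervals lay inside 1.5-fold.

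Psmb7, which carries the trypsin-like activity, was the lowest of them. It ran from 12.17 to 12.57 in controls (median 12.42) and from 11.82 to 12.29 in diabetic animals (median 12.18). All 7 diabetic animals lay below the control median and 3 below every control, a 0.844-fold level (0.718 to 0.993, limma adjusted p = 0.487). Psmb5, the chymotrypsin-like subunit, ran from 12.68 to 13.03 in controls (median 12.77) and from 12.37 to 12.94 in diabetic animals (median 12.65), a 0.900-fold level (0.767 to 1.05). Here 2 diabetic animals lay above the control median and 5 below. Psmb2 and Psmb3 were at 1.02-fold (0.883 to 1.17) and 0.993-fold (0.840 to 1.17).

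Over the 23 measured proteasome subunits, 18 had a change below 0 and the median change was log2 -0.07, a 0.954-fold level. This median was below 0 in all 31 settings, from -0.12 to -0.05, while the median of all genes lay between -0.01 and 0.02. The settings refit the same arrays, and the blocks and the variance prior cannot move this estimate, so the shared sign is not separate support. Averaged over the subunits, the deviation of an animal from the mean of all arrays was 0.05 ± 0.07 in controls and -0.05 ± 0.08 in diabetic animals (SD, n = 7), with overlapping ranges of -0.07 to 0.13 and -0.16 to 0.08. Within each batch the mean was lower in diabetic animals, at 0.05 against 0.12 in A, -0.07 against 0.03 in B and -0.09 against 0.01 in C. The animals of the 2 groups overlapped within C but not within A or B. With 2 against 2 animals in A and in B, such a separation is common by chance. The lowest animal was diabetic replicate 5, which held the lowest value in 7 of the 23 subunits, while control replicate 5 held it in 6. The array of diabetic replicate 5 also had the highest 3' to 5' ratio of GAPDH of all 14 (log2 0.557) and the highest of beta-actin in batch C (1.47), whose part in its low values was not tested. The median change of the subunits was -0.07 with this animal and -0.05 without it. The next lowest mean was that of diabetic replicate 2. Control replicates 2, 1 and 6 had the highest means.

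The subunits also varied between batches. Of the 13 core (20S) subunits 12 were higher in batch A than in the mean of B and C (median log2 0.28), and of the 10 regulatory (19S) subunits 5 were (median -0.08). Higher in batch A were Psma2 (log2 0.57 ± 0.11, SE, limma adjusted p = 0.00897), Psmb1 (0.48 ± 0.10, limma adjusted p = 0.0112) and Psma6 (0.31 ± 0.08, limma adjusted p = 0.0466), where 3.07% of all genes were higher and 5.23% lower in A. None of the 23 subunits was called lower in batch A. Among the other members Map1lc3a (log2 -0.60 ± 0.12, limma adjusted p = 0.0109) and Ctsd (-0.52 ± 0.14, limma adjusted p = 0.0496) were lower in batch A. Over the 3 batches 6 of 35 members differed (limma F test, adjusted p under 0.05), against 10.3% of all genes. Each batch held both groups in equal number.

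**Figure D3:**
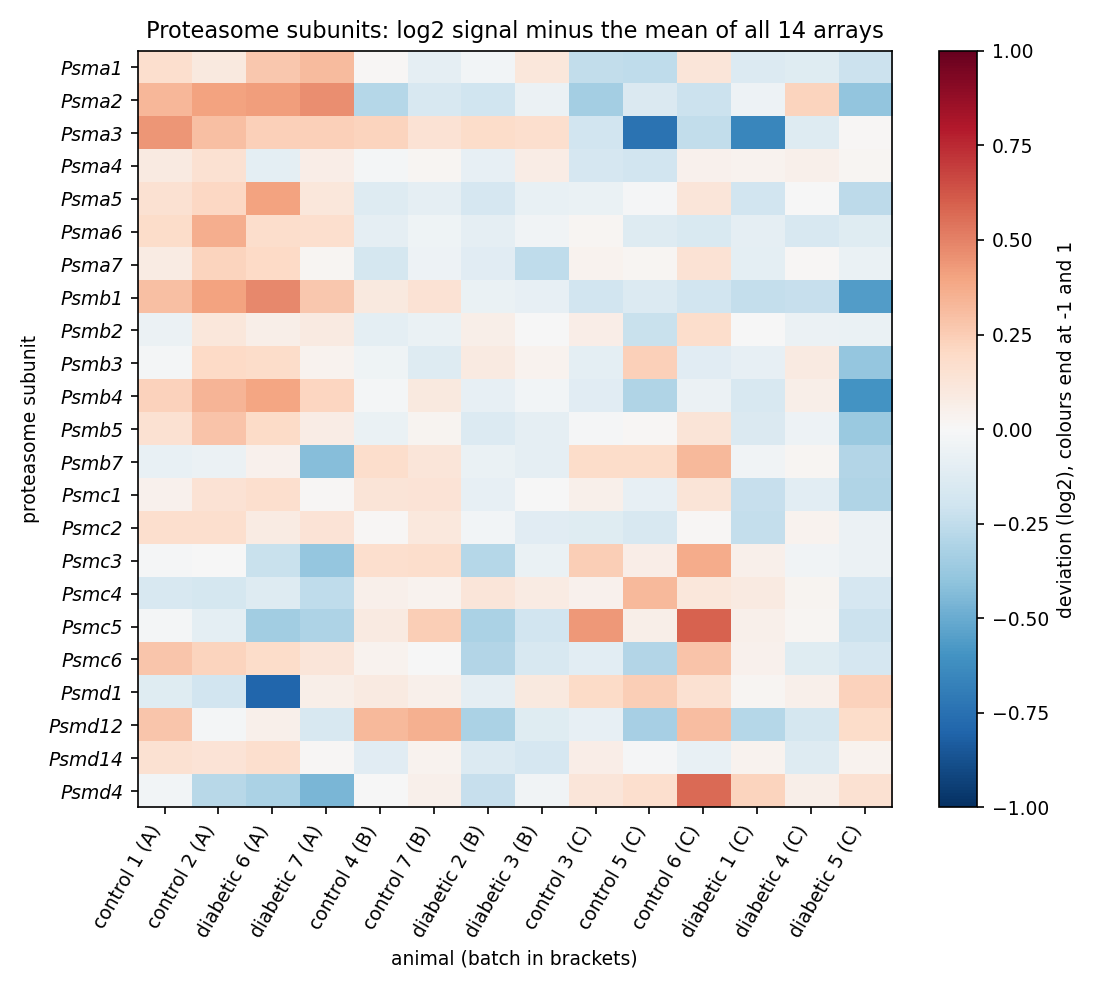
Deviation of each of the 23 measured proteasome subunits (rows, by role) in each of the 14 animals (columns, by batch and then group) from the mean of all arrays, as log2 signal; red is higher and blue lower. Of the 13 subunits of the 20S core, 12 were higher in the 4 animals of batch A than in the mean of the others. The low point of Psmd1 in diabetic replicate 6 lies apart from the other animals of its row.

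Of 10 measured autophagy and lysosome members 0 were called, 5 lay below 0 and 5 above, and the median log2 change was -0.0081. Ulk1, the kinase that starts autophagosome formation, had the largest difference of the 10. It ran from 10.94 to 11.45 in controls (median 11.08) and from 10.46 to 11.03 in diabetic animals (median 10.68). All 7 diabetic animals lay below the control median and 5 below every control. The level was 0.762-fold (0.634 to 0.914), with a log2 change of -0.39 ± 0.12 (SE, limma adjusted p = 0.214, and 0.0793 with batch as a block). Within batches A, B and C the change was -0.53, -0.17 and -0.45. The second Ulk1 probe set, dimmer than the first, had a log2 change of -0.43 ± 0.18 (SE). Becn1 (Beclin 1), a subunit of the lipid kinase complex that acts next, ran from 10.98 to 11.31 in controls (median 11.09) and from 10.86 to 11.47 in diabetic animals (median 11.17), a 1.01-fold level (0.849 to 1.21).

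The Atg8 family proteins, which coat the growing membrane, did not share a direction. Map1lc3a (LC3A) ran from 11.73 to 12.95 in controls (median 12.56) and from 12.24 to 13.04 in diabetic animals (median 12.76), a 1.13-fold level (0.862 to 1.49, limma adjusted p = 0.847). Control replicate 2 was the lowest animal, and both it and control replicate 1 belong to batch A, where this gene was low in both groups. Gabarapl1 ran from 10.64 to 11.29 in controls (median 10.97) and from 10.42 to 11.45 in diabetic animals (median 10.91), a 0.898-fold level (0.705 to 1.14). The diabetic range enclosed the control range. Its log2 change was -0.66 within batch B and 0.08 and 0.03 within A and C. Atg5 and Atg7, which drive the conjugation of these proteins to lipid, were at 0.974-fold (0.765 to 1.24) and 1.05-fold (0.889 to 1.24).

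Bnip3 and Bnip3l, tether mitochondria to the autophagosome. Bnip3 ran from 12.52 to 13.15 in controls (median 12.97) and from 12.68 to 13.39 in diabetic animals (median 12.98), a 1.07-fold level (0.882 to 1.29). Bnip3l ran from 11.62 to 12.03 in controls (median 11.79) and from 11.54 to 11.91 in diabetic animals (median 11.77), a 0.978-fold level (0.840 to 1.14). In both genes the groups overlapped over most of their range.

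Ctsl (cathepsin L), a lysosomal protease, ran from 12.74 to 13.14 in controls (median 12.94) and from 12.82 to 13.07 in diabetic animals (median 12.97), a 1.01-fold level (0.873 to 1.17, limma adjusted p = 0.983). The diabetic range lay inside the control range. Ctsd (cathepsin D), another, ran from 11.76 to 12.60 in controls (median 12.01) and from 11.45 to 12.55 in diabetic animals (median 12.20), a 0.979-fold level (0.739 to 1.30). Its log2 change was 0.33 within batch B and -0.20 and -0.16 within A and C.

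The rest of the pathways was taken from 11 lists with 168 gene names, of which 149 were measured. Of these 0 were called higher and 1 lower, where 0.943% of all genes were higher and 0.781% lower. That gene was Gadd45a, a stress-inducible growth arrest gene that is induced in wasting skeletal muscle. Its group means were 11.92 ± 0.10 in controls and 11.17 ± 0.14 in diabetic animals (SD, n = 7), a 0.596-fold level (0.516 to 0.689, limma adjusted p = 0.000511), and all 7 diabetic animals lay below every control. In the same list of FoxO factors and atrophy signalling (21 measured, median log2 -0.03), Eif4ebp1, which represses cap-dependent translation, had a log2 change of 0.61 ± 0.16 (SE, limma adjusted p = 0.0829) with 5 of 7 diabetic animals above every control. With batch as a block it was called (limma adjusted p = 0.00625). Smad2 and Mtor had log2 changes of -0.32 ± 0.13 and -0.21 ± 0.09.

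Lists of the proteasome and ubiquitin system had 0 members called in either direction. Among the 12 other genes listed with the 19S particle (median log2 -0.04) the assembly chaperone Psmd10 was at -0.42 ± 0.18 (SE) and the subunit Psmd8 at 0.22 ± 0.13. Among 7 immunoproteasome subunits and activators the median was -0.00098. Psme4, the activator PA200, was at -0.32 ± 0.11 with 6 of 7 diabetic animals below every control, the proteasome inhibitor Psmf1 at 0.14 ± 0.12, and the immunoproteasome subunit Psmb8 at 0.18 ± 0.17. Among 9 assembly factors and regulators the median was -0.05, with Psmg2, an assembly chaperone, at -0.27 ± 0.12 and Nfe2l2 (Nrf2) at 0.24 ± 0.14. Of 11 genes of ubiquitin supply and activation (median -0.04) the conjugating enzyme Ube2d1 was at -0.45 ± 0.14 and Uba6 at 0.35 ± 0.18. Of 11 deubiquitinases (median -0.00073) Uchl1, a ubiquitin hydrolase of neurons, was at 0.60 ± 0.30 and the proteasome-bound Usp14 at -0.20 ± 0.12.

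The 16 other muscle ubiquitin ligases had a median log2 change of 0.05 and 0 calls. Fbxo21 was at 0.49 ± 0.14 (SE, limma adjusted p = 0.151), with 6 of 7 diabetic animals above every control, and it was called with batch as a block (limma adjusted p = 0.0384). Cblb, a ligase that targets insulin signalling proteins, was at 0.39 ± 0.15. Fbxo31, another F-box protein, was at -0.30 ± 0.15. Trim54, a relative of Trim63, was at 0.16 ± 0.11.

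Among 17 genes of autophagy initiation 0 were called (median log2 -0.04), with Atg13, a partner of Ulk1, at 0.20 ± 0.10 (SE). Among 14 genes of conjugation and cargo adaptors 0 were called (median -0.01). Optn, a receptor for ubiquitin-tagged cargo, was at -0.32 ± 0.10 with 6 of 7 diabetic animals below every control, and Sqstm1 (p62) at 0.16 ± 0.11. The 26 other lysosomal genes had the highest median of the lists, 0.11, with 16 above 0 and 0 called. Ctsa was at 0.38 ± 0.14, Scarb2 at 0.35 ± 0.13, and Hexa at 0.26 ± 0.10. Macrophages are rich in lysosomes, and the macrophage markers had a median log2 change of 0.44 with 6 of 6 above 0. Within batches A, B and C that median was -0.05, 0.61 and 0.65, and the lysosomal one 0.07, 0.10 and 0.04. Their part in the lysosomal values was not tested. Of 5 calpain genes 0 were called, with Capn2 at 0.20 ± 0.11.

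**Figure D4:**
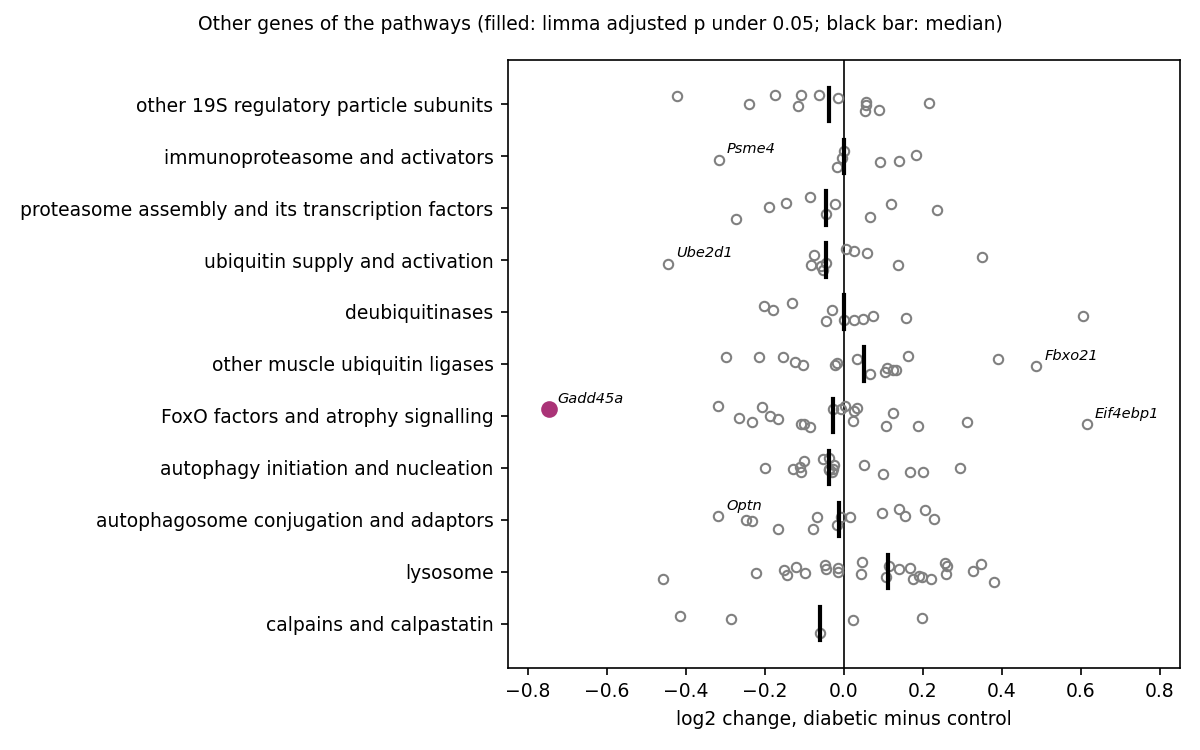
Log2 change (diabetic minus control, n = 7 per group) of the 149 other measured pathway genes, 1 circle per gene and 1 row per list, with the median as a black bar; vertical scatter within a row has no meaning. Gadd45a at -0.75 is the single filled point (limma adjusted p under 0.05), and the medians lie between -0.06 and 0.11.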

How the data were processed

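For each array the authors deposited a linear intensity per probe set. Per the submitters' processing notes, the tools were MAS5, RMA, affy and limma, named there without role or version. Each array was scaled here to a trimmed mean of 500 (2% trimmed per end), 50 was added, and log2 values were quantile normalised. Scale factors ran from 1.60 to 8.76. After leaving out 57 control probe sets, 31042 entered limma 3.58.1, run in R 4.3.3 (group only, two-sided, Benjamini-Hochberg adjusted over all of them), and 354 were called. The limma fit, without the scaling and normalisation, was tested on simulated data with independent noise and no batches. Animals are separate samples per the labels.

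A gene was read by its brightest probe set with 1 symbol (20826 of the probe sets had 1, 436 several, 9780 none). All 35 measured members kept their symbol when looked up by gene ID in RefSeq (GRCr8).

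The range and median of each group are given for the 12 members with the smallest p and for 12 genes set by name (those measured). Up to 4 genes per other list are named by smallest p, beside all called ones. The members, lists and alternatives were chosen with earlier results of these data known. The test between batches was added after seeing the values. The array batches come from the control probe sets alone (spiked poly-A RNA, and 3' against 5' beta-actin), and no label names them. RNA came from 1 of 2 extraction kits, which the labels do not assign to animals.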

Additional observations from a re-analysis of the deposited data

Results flagged for a closer look

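In 4 of 70 groups of 7 animals (35 members in 2 groups), 1 animal stood apart from the others by the 95% limit of Dixon's test; chance gives about 1 in 20 such groups. Psmd1 in diabetic replicate 6 was at log2 10.05, with the next lowest diabetic animal at 10.75. Psma3 in diabetic replicate 1, the array with the lowest median signal, was at 9.48, with the next at 10.00. Ulk1 in control replicate 6 was at 11.45, above the next control at 11.14, and Atg5 in control replicate 2 was at 10.14, above the next at 9.75. Without the animal that stood apart, the log2 change was -0.34 for Ulk1 (-0.39 with it), 0.13 for Psma3 (0.02), 0.04 for Atg5 (-0.04) and 0.00005 for Psmd1 (-0.12), and none was called (limma adjusted p of 0.339 for Ulk1, higher for the others).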

How the results depend on the processing

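The count of 0 called members held in the settings not named next, with array medians subtracted, cyclic loess, the mean of a gene's probe sets, the actin ratio as a covariate and each array left out among them. It was 1 (Trim63, lower) with an offset of 200, array weights, dim probe sets left out and batch as a block, which also makes the count of ubiquitin ligases 1 in each. Proteasome and autophagy members had 0 calls in every setting run. Other pathway genes called, 1 in the main analysis, were 2 with no scaling, with the trended robust variance prior, with dim probe sets left out and with the actin covariate, 3 with an offset of 200 and with batch as a block, 4 with array weights and 0 within each batch (limma, 5, 11 and 4 at an unadjusted p under 0.05 in A, B and C). Probe sets called, 354 in the main analysis, were 566 with an offset of 200, 543 with the trended prior, 558 with dim probe sets left out, 645 with batch as a block, 143 with the replicate block, 190 without the 3 dimmest arrays and 0 within each batch (limma, 2355, 3199 and 2393 at an unadjusted p under 0.05). The cause of these differences was not tested.

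Of 1085 values of single members under other settings, 89 had another sign, all in genes with a main change of at most log2 0.16 in size, and 4 were called, all of Trim63. Same-numbered animals did not deviate together (correlations from -0.16 to 0.09, 0 of 7 closest to their own number), so the numbers do not pair them. With the replicate block 0 members were called and the adjusted p of Trim63 was 0.416. No detection calls were used, so background was not judged for dim probe sets such as those of Fbxo32 and Atg7.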

Other observations

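The 35 measured members had 50 probe sets, and 10 members had several. Of the 50, 0 were called (limma adjusted p under 0.05, 7 at an unadjusted p under 0.05). For 8 of the 10 genes, the probe sets had changes of both signs. Psmb5 gave log2 -0.15 ± 0.11 (SE) on its bright probe set and -0.64 ± 0.23 and 0.24 ± 0.23 on the dim ones. Psmc4 gave -0.07 ± 0.11 and 0.30 ± 0.20, and its mean over both probe sets was 0.12, so its sign depends on the probe set. For Ulk1 and Gabarapl1 no probe set was above 0.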
